A study of Komagataella pastoris with 4 samples.

Results

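Snf1 is the yeast member of the AMP-activated protein kinase family, and its complex lets cells use carbon sources other than glucose. A catalytic subunit, an activating gamma subunit and a scaffolding beta-subunit make up the complex, and in Saccharomyces cerevisiae the alternative beta-subunits, among them Gal83, set where in the cell the kinase acts. When glucose runs out, the kinase relieves glucose repression and promotes expression of genes for gluconeogenesis and respiration. In methylotrophic yeasts, methanol genes are likewise repressed by glucose.

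The rows of the Snf1 complex were taken as gene1360, whose description makes it a possible beta-subunit of the Snf1 kinase complex, gene161, described as glucose repression protein GAL83, and any other row whose description held the word Snf1. That added gene2392, the activating gamma subunit, whose description writes the word as Snf1p. There were 3 such rows among 5427, and all 3 were among the 5420 rows compared. The row for the catalytic subunit, gene2489, is described as an AMP-activated kinase in a complex with Snf4p, without the word Snf1, and was read beside them as part of a wider list of 30 Snf1 network rows.

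RNA was sequenced from 4 Pichia pastoris strains, all histidine auxotrophs, after 14 h in minimal medium with methanol. They were the parent GS115 (genotype Wild Type, no antibiotic resistance), called GS115 or the wild type, and strains labelled as deletion mutants of Mxr1, a zinc-finger activator of methanol genes, of Gal83, and of Gcn5, the histone acetyltransferase of the SAGA complex. Each deletion strain also carries Zeocin resistance, so the deletion and the resistance marker cannot be told apart, and the labels do not say how many clones were used. Each strain had 1 library, so there is no replicate check on any difference, no p-value was computed, and every comparison is between libraries. The Mxr1 label was not checked against its own gene, since no row is described as Mxr1, and that library is called Mxr1-labelled. Whether a zinc-finger row without that name, such as gene4868, is Mxr1 was not tested. The gene4868 row had 9114 counts in GS115 and 11606 in the Mxr1-labelled library, so it was not absent there. The library of the strain labelled as the Gal83 deletion is called Gal83-labelled, because the row described as GAL83 (gene161) kept 5513 counts there. The row nearly absent from it was gene1360, so that the submitters' Gal83 is gene1360 is an inference from its counts and the label.

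Values are read counts per row, and levels are CPM, counts scaled to a common library size with TMM factors (trimmed mean of M-values). Ratios are log2 ratios to the wild type, with the exact 95% counting interval in brackets. These intervals cover counting error only. A row counted as called, higher or lower, if the difference reached 2-fold with an interval that left out equality. Total counts ran from 30582006 to 48539082. Of 5420 rows, 11.0% were called higher and 10.7% lower in the Gal83-labelled library. The shares were 7.97% and 10.3% under the Mxr1 label, and 4.06% and 5.04% in the strain without Gcn5. Higher rows made up 50.6%, 43.6% and 44.6% of the calls in the same order with TMM, and 61.1%, 18.4% and 15.9% with total counts. The 3 comparisons share the wild-type library, so a value particular to that library enters all of them.

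The beta-subunit row gene1360 was the row nearly absent from the strain labelled as the Gal83 deletion. It had 5215 counts in GS115, 8 in the Gal83-labelled, 3996 in the Mxr1-labelled and 2263 in the Gcn5-deletion library. The Gal83-labelled library stood far below the other 3. Its 8 counts, with an exact Poisson interval of 3.45 to 15.8 counts, were 0.222% of the wild-type level after scaling, a 424-fold difference. Only 5 rows of the table, gene1360 included, had 8 or fewer counts in that library. The log2 ratio of -8.73 [-10.03 to -7.84] was the lowest of all rows compared there.

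In the other 3 libraries gene1360 differed by up to 1.59-fold after scaling, between the Mxr1-labelled and Gcn5-deletion libraries. Scaled levels were 134 CPM in the Mxr1-labelled library, 97.7 in GS115 and 84.3 without Gcn5. Log2 ratios were 0.45 [0.39 to 0.51] and -0.21 [-0.28 to -0.14] for the Mxr1-labelled and Gcn5-deletion libraries. Neither passed the 2-fold rule, although each step in this order exceeded counting error. With total counts in place of TMM the first of these ratios was 0.10.

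The row that carries the name GAL83, gene161, was present in the Gal83-labelled library. It had 13620 counts in GS115, 5513 in the Gal83-labelled, 3707 in the Mxr1-labelled and 2112 in the Gcn5-deletion library. The wild type was the highest of the 4. Scaled levels fell into the order wild type (255 CPM), Gal83-labelled (149), Mxr1-labelled (124) and Gcn5 deletion (78.6), and the intervals of these levels did not overlap.

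The largest difference in gene161 was in the Gcn5-deletion library, at 3.24-fold lower and log2 -1.70 [-1.76 to -1.63]. Only 63 of 5420 rows, or 1.16%, had a ratio this low or lower there. Under the Mxr1 label gene161 was 2.06-fold lower, at log2 -1.04 [-1.09 to -0.99], just past the 2-fold rule. In the Gal83-labelled library it was 1.71-fold lower, at log2 -0.77 [-0.82 to -0.73], and was not called. A total of 15.6% of rows were as low or lower in that comparison. Set directly against the Gcn5-deletion library, gene161 was higher in the Gal83-labelled library by 0.93 [0.85 to 0.999] on the log2 scale, which by total counts became 1.39 and passed the rule. Where gene1360 was nearly absent, gene161 was thus below the wild type and above the other deletion libraries.

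The gamma subunit row gene2392, whose product in Saccharomyces cerevisiae (Snf4) keeps the kinase active by holding off its autoinhibitory domain, had its lowest TMM-scaled level in the Gal83-labelled library, although by total counts the Gcn5-deletion library was lower still. Its counts were 4467 in GS115, 1940 in the Gal83-labelled, 3302 in the Mxr1-labelled and 1825 in the Gcn5-deletion library. In scaled levels the order was Mxr1-labelled (110.5 CPM), wild type (83.6), Gcn5 deletion (67.9) and Gal83-labelled (52.6). The log2 ratio was -0.67 [-0.75 to -0.59] in the Gal83-labelled library, 0.40 [0.34 to 0.47] in the Mxr1-labelled library and -0.30 [-0.38 to -0.22] in the Gcn5-deletion library. None passed the 2-fold rule against the wild type. Between the Gal83-labelled and Mxr1-labelled libraries the difference was 2.10-fold with TMM, or log2 -1.07, and fell short of the rule with total counts, at log2 -0.59. With total counts the levels were 63.4 CPM in the Gal83-labelled and 59.4 in the Gcn5-deletion library.

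The catalytic kinase row gene2489 differed from each of the other 3, which had no common course themselves. Its counts were 5600 in GS115, 3655 in the Gal83-labelled, 2475 in the Mxr1-labelled and 4080 in the Gcn5-deletion library. After scaling, the Gcn5-deletion library was highest and the Mxr1-labelled library lowest. Log2 ratios were 0.53 [0.48 to 0.59] and -0.34 [-0.41 to -0.27] in those libraries. In the Gal83-labelled library the ratio was -0.08 [-0.14 to -0.02], which became 0.05 with total counts. In the Gcn5-deletion library the kinase row was thus above the wild type, while gene161, gene1360 and gene2392 were below it.

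**Figure D1:**
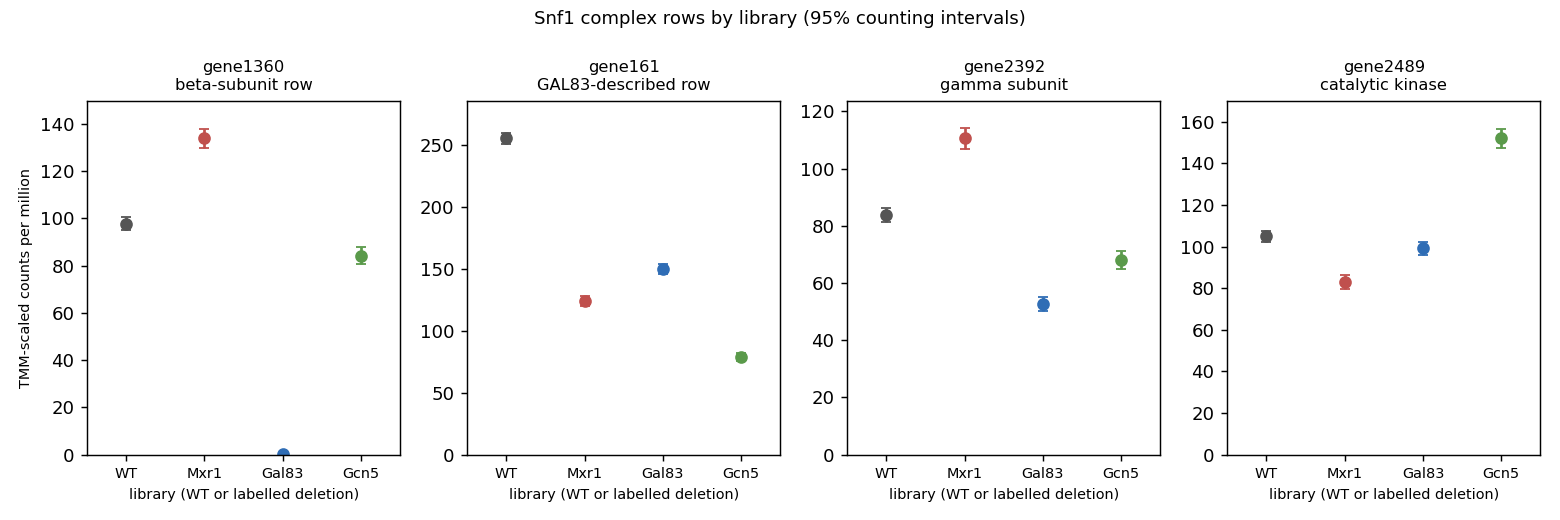
TMM-scaled CPM (linear axes from 0, 1 scale per panel) of the 4 Snf1 complex rows in each library, with bars for the 95% counting interval. gene1360 sits at 0.217 in the Gal83-labelled library, gene161 is highest in the wild type at 255, gene2392 is lowest in the Gal83-labelled library (by total counts, in the Gcn5-deletion library) and gene2489 is highest in the Gcn5-deletion library.

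**Figure D2:**
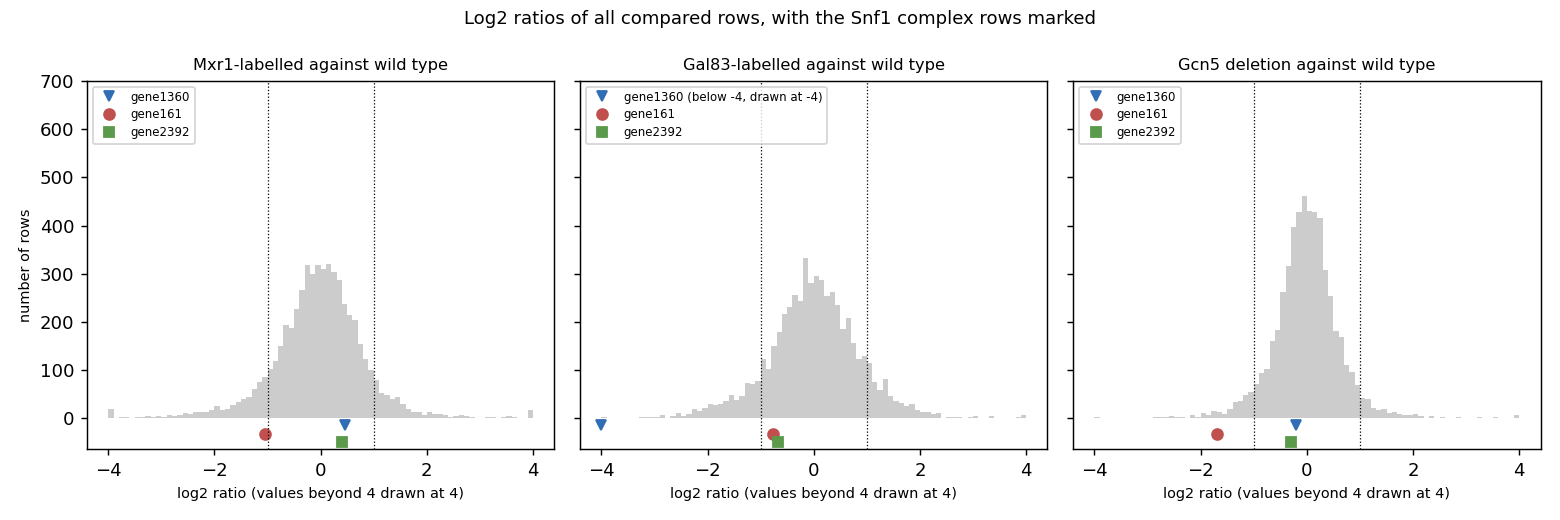
Number of rows by log2 ratio to the wild type in each comparison (5420 rows, bars), with gene1360, gene161 and gene2392 marked below the axis and the 2-fold limits dotted. Of the marked rows, gene1360 in the Gal83-labelled library (-8.73) and gene161 in the Gcn5-deletion library (-1.70) stand farthest from 0.

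The rows on either side of gene1360 were among the highest of the Gal83-labelled library. The rows gene1358 to gene1362 carry consecutive locus tags, and the table gives no coordinates. The row before it, gene1359, described only by a P-loop nucleoside triphosphate hydrolase fold, had 2028 counts in GS115, 14118 in the Gal83-labelled, 1166 in the Mxr1-labelled and 1183 in the Gcn5-deletion library. It was 10.1-fold higher in the Gal83-labelled library, at log2 3.33 [3.27 to 3.40], and only 15 of 5420 rows were as high, itself included. In the Mxr1-labelled and Gcn5-deletion libraries its ratios were 0.04 and 0.21, and with total counts -0.31 and -0.12.

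The row after it, gene1361, is described as mitochondrial distribution and morphology protein 34, which in Saccharomyces cerevisiae helps tether mitochondria to the endoplasmic reticulum. It had 21044 counts in GS115, 109578 in the Gal83-labelled, 56635 in the Mxr1-labelled and 10611 in the Gcn5-deletion library. Both the Gal83-labelled and the Mxr1-labelled library were high. The row was 7.54-fold higher in the former, at log2 2.91 [2.89 to 2.94], and at log2 2.27 [2.24 to 2.29] in the latter. It was at 0.00 in the Gcn5-deletion library.

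One row farther out, gene1358, described as the oligosaccharyltransferase subunit STT3, stood at log2 1.05 in the Gal83-labelled library, a call lost with upper-quartile factors (0.98). On the other side gene1362, vacuolar morphogenesis protein 7, was at log2 1.68 there and 1.43 in the Mxr1-labelled library. Of the 20 rows within 10 positions of gene1360, 4 were called higher and 8 lower in the Gal83-labelled library, 2 of the latter with identical counts. Over all rows there, 11.0% were called higher and 10.7% lower. The 4 called higher were gene1358, gene1359, gene1361 and gene1362, so the stretch of rows called higher ended 2 rows from gene1360. Of 5411 rows with both neighbours compared, 90, or 1.66%, had both called higher in this library, and 3, gene1360 included, had both at or above log2 2.91. Around the Gcn5 row gene3103, with 3 counts in its own deletion library, the adjacent rows were at log2 0.03 and 0.16 in that library. There 0 of 20 rows within the same distance were called. Of all rows in the Gcn5-deletion library 4.06% were called higher and 5.04% lower, shares at which few calls would fall among 20 rows. Whether the deletion construct at gene1360, or reads crossing between neighbouring rows, contributes to the values of gene1359 and gene1361 was not tested.

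The rows next to gene161 were less unusual. In the Gcn5-deletion library, where gene161 was lowest, gene160 (a nucleolar rRNA processing protein) was at log2 0.56 and gene162 (a plasma membrane pyridoxine transporter) at -0.85, or -1.18 and past the rule with total counts. In the Gal83-labelled library they were at -0.88 and -0.07, and the last became 0.06 with total counts. With TMM none of these was called.

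**Figure D3:**
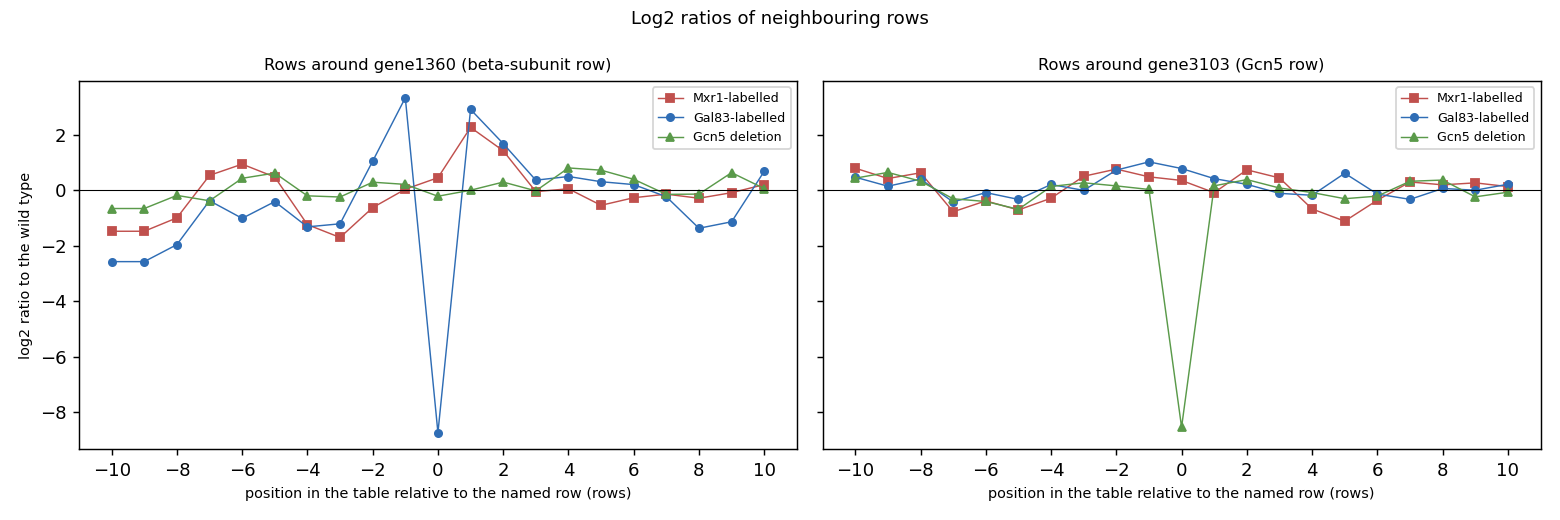
Log2 ratio to the wild type of the 10 rows on either side of gene1360 (left) and of the Gcn5 row gene3103 (right), by position in the table, for the 3 deletion libraries. In the Gal83-labelled library gene1360 falls to -8.73 between neighbours at 3.33 and 2.91, whereas the neighbours of gene3103 in the Gcn5-deletion library stay near 0.

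Rows with a similar course across libraries were looked for by the root mean square difference of centred log2 levels. For gene161, over 4 libraries, the nearest described rows were a major facilitator transporter domain row (gene1639, difference 0.077), peroxisomal biogenesis factor 3 (gene3170, 0.082), a mitochondrial aspartate/glutamate carrier (gene3873, 0.090), a thiamin diphosphate-binding fold row (gene733, 0.10) and a DNA helicase associated with polymerase alpha (gene538, 0.13). Few rows shared this course, and 3 lay within 0.1. Peroxisomal biogenesis factor 3, which brings membrane proteins to peroxisomes, had 14751 counts in GS115, 6407 in the Gal83-labelled, 4579 in the Mxr1-labelled and 2637 in the Gcn5-deletion library.

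For gene1360 the Gal83-labelled library was left out, and 258 rows lay within 0.1 over the remaining 3 libraries. Its nearest described rows were a Dbf4 kinase regulatory subunit (gene43), the glucan synthase component FKS1 (gene2776), urea amidolyase (gene5239), a stress response transcription factor (gene1890) and molybdenum cofactor sulfurase (gene2715). In the library left out, these 5 were at log2 0.17, -1.39, 0.63, 0.55 and -0.22, so they had no common course there. For gene2392 there were 22 rows within 0.1.

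The wider network list held 30 rows, of which 4 (13.3%) were higher and 1 (3.33%) lower in the Gal83-labelled library, beside 11.0% and 10.7% of all rows. The 1 lower row was gene1360 itself. In the Mxr1-labelled library 3 of the 30 were higher and 1 lower, beside 7.97% and 10.3% of all rows. In the Gcn5-deletion library 0 were higher and 2 lower, beside 4.06% and 5.04% of all rows. Median log2 ratios were 0.24, 0.34 and 0.07, beside 0.01, -0.01 and -0.01 over all rows. Its patterns also took in 4 rows on nitrogen catabolite repression and a row with the domain name MTH1187. Without these 5, chosen by description after the values were seen, 3 of 25 rows were higher and 1 lower in the Gal83-labelled library. The patterns for the upstream kinases Sak1, Tos3 and Elm1 matched 0 rows.

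Of the 4 network rows called higher in the Gal83-labelled library, 3 were transcription regulators, the role with the most rows in the list. Among 10 such rows 3 (30.0%) were higher and 0 lower there, beside 11.0% and 10.7% of all rows. The 10 rows had a median of 0.35. Of the 4 rows described as subunits of the Hap2/3/4/5 complex, a CCAAT-binding activator of respiratory genes, gene4703 and gene3659 were called. The first, gene4703, had 2052 counts in GS115, 4451 in the Gal83-labelled, 4283 in the Mxr1-labelled and 1509 in the Gcn5-deletion library. It was at log2 1.65 [1.57 to 1.73] in the Gal83-labelled and 1.90 [1.82 to 1.98] in the Mxr1-labelled library.

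The second Hap row, gene3659, was high in a single library, with 2217 counts in GS115, 4617 in the Gal83-labelled, 1147 in the Mxr1-labelled and 1169 in the Gcn5-deletion library. It was 3.01-fold higher in the Gal83-labelled library, at log2 1.59 [1.52 to 1.67], and at -0.11 and 0.07 in the Mxr1-labelled and Gcn5-deletion libraries. The remaining Hap rows gene3517 and gene4921 were at 0.51 and 0.39 in the Gal83-labelled library. The carbon source-responsive zinc-finger factor gene4868 stood at log2 1.16 in the Gal83-labelled and 1.19 in the Mxr1-labelled library, and the latter call was lost with total counts (0.84). The fourth higher row was the MTH1187 domain row (gene793, log2 1.18).

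The glucose repression factor gene5053 was lower in the Gcn5-deletion library alone. It had 5911 counts in GS115, 3702 in the Gal83-labelled, 3696 in the Mxr1-labelled and 1317 in the Gcn5-deletion library. Its ratio was -1.17 [-1.26 to -1.09] in the last, and 0.16 under the Mxr1 label and -0.14 under the Gal83 label, with the former at -0.19 by total counts. Together with gene161 it made up the 2 network rows called lower without Gcn5. The row gene1980, described as a regulator involved in glucose repression of Gal4-regulated genes, was at -0.73 in the Gal83-labelled library. The Mig1-interacting bZIP row gene491 was at 0.31 there. The adjacent, near-identically described rows gene4864 and gene4865, between which reads may have been split, were at 0.18 and 0.16.

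Type 1 phosphatase, whose Glc7 catalytic subunit removes the activating phosphate from Snf1 in Saccharomyces cerevisiae, was represented by 8 rows for regulatory or interacting proteins. None was called in the Gal83-labelled or Gcn5-deletion library, where 11.0% and 4.06% of all rows were called higher and 10.7% and 5.04% lower. In the Mxr1-labelled library 1 (12.5%) was called higher and 0 lower, beside 7.97% and 10.3% of all rows. That row, the Glc7 regulatory subunit gene396, had 6374 counts in GS115, 5397 in the Gal83-labelled, 10039 in the Mxr1-labelled and 4055 in the Gcn5-deletion library, and was at log2 1.49 [1.45 to 1.54] in the Mxr1-labelled library. Ratios in the Gal83-labelled library ran from -0.57 (regulatory subunit 3, gene4041) to 0.86 (the Ppz1 inhibitor gene3216). In the Gcn5-deletion library the PP-1 regulatory row gene4857 came nearest to the rule, at 0.96. The rows gene682, gene3584, gene2891 and gene2400 were at 0.76, 0.62, 0.47 and -0.20 in the Gal83-labelled library.

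Of the glucose signalling rows, STD1 (gene5128), which interacts with Snf1 and tunes glucose-regulated genes in Saccharomyces cerevisiae, had 1100 counts in GS115, 465 in the Gal83-labelled, 1225 in the Mxr1-labelled and 443 in the Gcn5-deletion library. Its ratio was 0.99 [0.87 to 1.11] in the Mxr1-labelled library, just short of the rule, and -0.71 [-0.87 to -0.55] in the Gal83-labelled library. Hexokinase 2 (gene1303), which takes part in glucose repression, was at 0.51 in the Gal83-labelled library, and the glucose-repressible kinase gene4208 at -0.42. The nitrogen catabolite repression rows gene132, gene1244, gene3026 and gene4716 lay between 0.08 and 0.42 there.

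**Figure D4:**
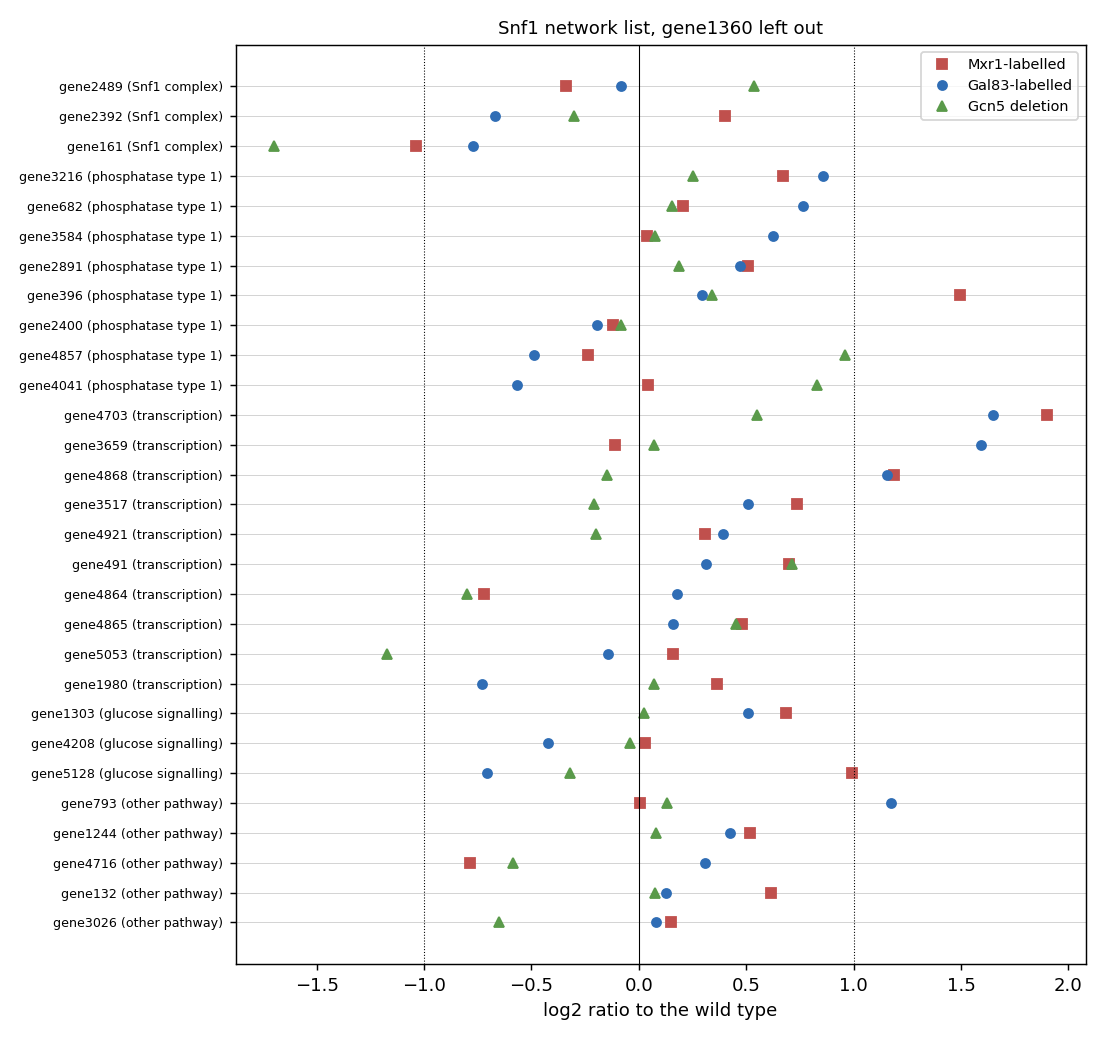
Log2 ratio to the wild type of 29 network rows (gene1360 left out, since its value of -8.73 would compress the axis), grouped by role, with the 2-fold limits dotted. gene161 lies left of 0 in all 3 comparisons. To the right, gene4703, gene3659, gene4868 and gene793 lie beyond 2-fold in the Gal83-labelled library.

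Pathways that Snf1 is known to act on in Saccharomyces cerevisiae differed in direction in the Gal83-labelled library, where 11.0% of all rows were called higher and 10.7% lower. Fatty acid synthesis begins with acetyl-CoA carboxylase, in that yeast a phosphorylation target of Snf1. All 3 listed rows of that route were lower in the Gal83-labelled library, with a median log2 ratio of -2.03. Acetyl-CoA carboxylase (gene1083) had 85146 counts in GS115, 16097 in the Gal83-labelled, 93009 in the Mxr1-labelled and 32212 in the Gcn5-deletion library. It was 3.65-fold lower in the Gal83-labelled library, at log2 -1.87 [-1.89 to -1.85], and 144 of 5420 rows were as low or lower.

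The fatty acid synthase rows had a like course. The beta subunit (gene313) had 119256 counts in GS115, 18252 in the Gal83-labelled, 139221 in the Mxr1-labelled and 27896 in the Gcn5-deletion library, and was 4.51-fold lower in the Gal83-labelled library. The alpha subunit (gene1133) had 90765, 15333, 61843 and 23901 counts in the same order, and was 4.09-fold lower. Under the Mxr1 label these enzymes were at log2 1.06, 0.28 and 0.97 for gene313, gene1133 and gene1083. The call on gene313 there was lost with total counts (0.71) and upper-quartile factors (0.95), and gene1133 turned to -0.07 with total counts. In the Gcn5-deletion library they were at -1.10, -0.93 and -0.41.

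Gluconeogenesis, which builds glucose from smaller molecules, held the row whose ratio in the Gal83-labelled library lay farthest from 0 among these pathway lists after the alcohol oxidase row gene4497. Phosphoenolpyruvate carboxykinase (gene1609), its first committed enzyme, had 298375 counts in GS115, 28327 in the Gal83-labelled, 261604 in the Mxr1-labelled and 368178 in the Gcn5-deletion library. Only the Gal83-labelled library was low, by 7.28-fold, at log2 -2.86 [-2.88 to -2.85], and 17 of 5420 rows were as low or lower. In the Gcn5-deletion library the row was at 1.29, a call lost with total counts (0.96). Fructose-1,6-bisphosphatase (gene3397) was at -1.61 in the Gal83-labelled and -1.69 in the Gcn5-deletion library. Isocitrate lyase of the glyoxylate cycle (gene1180) went the other way, at 1.44 in the Gal83-labelled library, while the malate synthase rows gene1316 and gene5220 were at -0.86 and -0.36. Under the Mxr1 label gene1180 and gene5220 were far higher, at 5.66 and 5.61, and gene1316 was at -1.48. Of the 7 listed rows 1 was higher and 2 were lower in the Gal83-labelled library, with a median of -0.53. The list missed by spelling the acetyl-coenzyme A synthetases 1 (gene2210) and 2 (gene3907), which were at -0.57 and 1.90. With these added and 2 rows of other functions left out, both after the values were seen, 2 of 7 rows were higher and 2 lower there, with a median of -0.57.

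Of the 5 carnitine and beta-oxidation rows 1 was called higher and 1 lower in the Gal83-labelled library, beside 11.0% and 10.7% of all rows. Carnitine acetyl-CoA transferase (gene4293), which loads acetyl groups onto carnitine, was at 1.57, the mitochondrial carnitine carrier Crc1 (gene2069) at -1.45 and 3-ketoacyl-CoA thiolase (gene1962) at 0.71. The carnitine acetyltransferase rows gene890 and gene3523 were at 0.40 and -0.08, the latter 0.06 with total counts. In the Mxr1-labelled library the 4 carnitine rows were called higher, at 6.45 (gene4293), 6.19 (gene2069), 5.58 (gene890) and 3.49 (gene3523). The thiolase gene1962 was called lower there, at -1.89. Of all rows 7.97% were called higher and 10.3% lower in that library. The carrier gene2069 thus had opposite signs in the Mxr1-labelled and Gal83-labelled libraries. Acyl-coenzyme A oxidase (gene1403), which the list missed by spelling, was at -3.65 under the Mxr1 label. Under the Gal83 label it was at 0.02, or -0.05 with upper-quartile factors.

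Of 10 storage carbohydrate rows 0 were higher and 2 lower in the Gal83-labelled library, beside 11.0% and 10.7% of all rows, with a median of -0.45. The initiator of glycogen synthesis (gene4471) was 4.03-fold lower, at log2 -2.01 [-2.07 to -1.95], from 16176 counts in the wild type to 2773. It had 15172 counts in the Mxr1-labelled and 6507 in the Gcn5-deletion library, at log2 0.75 and -0.32. The other called row was an aminopeptidase whose description mentions glycogen (gene2339, -1.23), and acid trehalase (gene5044) lay at 0.999, just short of the rule and past it with total counts (1.13). The glycogen phosphorylase row gene2876 lay as close on the lower side, at -0.997, and passed the rule with DESeq2 (-1.02) and upper-quartile factors (-1.07). Without the aminopeptidase 1 of 9 rows was lower.

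Of 10 rows listed for glucose and hexose transport 1 was called higher and 0 lower in the Gal83-labelled library, where 11.0% of all rows were called higher. The median was 0.45, and 8 ratios lay above 0. One of the 10 is a secretion factor of transporters (gene2688), and without it the median was 0.58. The rows nearest 0, gene2254 and gene2688, changed sign with total counts and upper-quartile factors, respectively. The called row was the high-affinity glucose transporter HGT1 (gene6), with 5562 counts in GS115, 12984 in the Gal83-labelled, 1073 in the Mxr1-labelled and 5375 in the Gcn5-deletion library. It was 3.38-fold higher in the Gal83-labelled library, at log2 1.76 [1.71 to 1.80], and at -1.54 in the Mxr1-labelled library. A glucose-repressed hexose transporter (gene3004) and a moderate-affinity one (gene1) were at 0.76 and 0.69.

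The cAMP and protein kinase A rows, which belong to the other main glucose signalling route, had 0 of 4 called in the Gal83-labelled library, with ratios from -0.51 (negative regulator of RAS-cAMP, gene4924) to 0.24 (adenylate cyclase, gene5028). The kinase row gene1204 was at -0.50. Of all rows 11.0% were called higher and 10.7% lower in the Gal83-labelled library, shares at which few of 4 rows would be called. All 5 methanol utilisation rows were called lower there, with a median of -2.28. The lowest were the alcohol oxidase rows gene4497 and gene5263, at -3.48 and -2.72, and the dihydroxyacetone synthase row gene3442, at -2.28. These alcohol oxidase rows share a description, and reads may have been split between them. The methanol rows were not lower in this library alone. With TMM, 5 of 5 were called lower in the Mxr1-labelled and 3 of 5 in the Gcn5-deletion library, beside 10.3% and 5.04% of all rows.

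**Figure D5:**
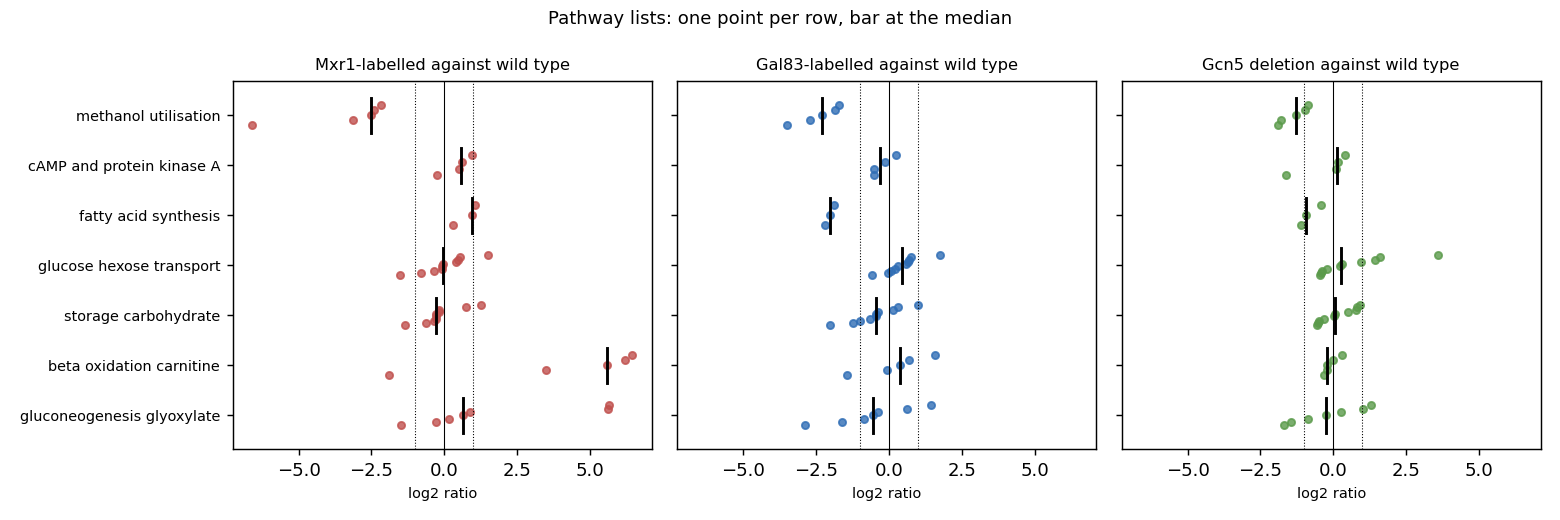
Log2 ratio to the wild type of each listed row (points) and the list median (bars) in the 3 deletion libraries, on 1 shared axis with the 2-fold limits dotted. Fatty acid synthesis lies at a median of -2.03 under the Gal83 label and 0.97 under the Mxr1 label, while methanol utilisation is below 0 in all 3.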

How the data were processed

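The counts deposited by the authors are raw whole-number read counts for 5427 features, and each of the 4 sample columns matches the label of 1 library. Programs listed in the submitters' processing notes, with no roles, are featureCounts 1.6.4, Bowtie2, DESeq2, fastp 0.19.6 and bcl2fastq 2.19.0.316. The genome build, annotation and strandedness are not given in the sources used here. Per the labels' protocols, rRNA was depleted with a kit for bacteria.

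Rows averaging 20 counts or more (5420) were scaled by TMM (edgeR 4.0.16, R 4.3.3). Log2 ratios used a pseudocount of 0.5, with Clopper-Pearson intervals (scipy 1.17.1), and the computation was tested on simulated counts. Members and lists were chosen with earlier results of these data known. Lists were patterns in the descriptions. Named rows were all network rows, the 3 largest Gal83-labelled ratios per list, the 5 most alike described rows and adjacent rows. Of the locus tags and protein accessions, 0 matched the reference table. Alternatives were other scalings (DESeq2 1.42.0 among them), filters, a pseudocount of 5 and a 4-fold rule.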

Additional observations from a re-analysis of the deposited data

How the results depend on the processing

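No paired analysis was possible because each strain had 1 library. Leaving the 20 highest rows out of the factors, no filter, a mean of at least 100 counts and a pseudocount of 5 left the 249 recomputed ratios of listed and adjacent rows within their counting intervals. DESeq2 size factors moved 14 of the 249 past theirs, in 7 deeply counted pathway rows such as gene4497 (-3.50) and gene1609 (-2.88) in the Gal83-labelled library, and none of the 3 complex rows. Under these 5 settings the counts of calls, over all rows and per list, stayed within 1.5 times. Total counts moved the median of all rows by -0.36, 0.14 and -0.34 for Mxr1-labelled, Gal83-labelled and Gcn5 deletion, and the ratios of the rows moved with it. By total counts gene1360 was at 0.10 (Mxr1-labelled) and -0.55 (Gcn5 deletion), gene161 at -1.39, -0.64 and -2.03, and gene2392 at 0.051, -0.54 and -0.63. Network rows called lower in the Mxr1-labelled library became 3 in place of 1. By total counts 231 rows were higher and 1023 lower in the Mxr1-labelled library (432 and 559 by TMM), and 111 and 588 in the Gcn5-deletion library (220 and 273). Upper-quartile factors moved the median of all rows in the Mxr1-labelled library to -0.12, where gene1360, gene161 and gene2392 were at 0.34, -1.16 and 0.29, and gene161 was at -0.84 in the Gal83-labelled library. Under the 4-fold rule, which is stricter by construction, 91 and 134, 77 and 106, and 37 and 31 rows were higher and lower for those libraries in the same order, and of the network rows 0 were higher in any library and only gene1360 was lower. No call of these 3 rows against the wild type changed under the scalings, and none changed sign. Between deletion libraries, total counts ended the 2-fold difference of gene2392 and brought that of gene161 past the rule. At these depths size and not counting error set the calls, and differences between cultures were not measured.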
